A study of Mus musculus with 24 samples.

Results

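Cd4, Cd8a and Cd8b1 encode the coreceptors that divide mature T cells into their main classes. They were selected by symbol from the 55414 genes of the RNA-seq count tables, and all 3 were present and passed the filter on low counts. The RNA came from spleen, labelled as splenocytes, of BALB/c mice, and the series set the CT-26 model against normal animals. CT-26 cells are a line of mouse colon carcinoma that grows in BALB/c hosts. Of 24 libraries in the series, the 8 RNA-seq libraries were used: 4 have titles beginning with control and 4 have titles beginning with CT-26. The treatment field says the reverse of the titles, since it gives an injection of CT-26 cells for the first 4 and a healthy control state for the last 4. The sets are therefore called control-titled and CT-26-titled, every difference is the second minus the first, and none is read as tumour against healthy. Per the labels' protocols, CT-26 cells were injected into the right side of mice at 8 weeks of age. The labels give no interval between injection and sampling and no tumour size. No label states that the 4 libraries of a set came from separate mice, so the p-values measure the spread between these libraries, which may in part be technical.

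CD4 is a single chain that binds MHC class II molecules and marks helper and regulatory T cells. CD8 binds MHC class I molecules and marks cytotoxic T cells, on which it is a heterodimer of the alpha chain (Cd8a) and the beta chain (Cd8b1). Both coreceptors work beside the T cell receptor and the CD3 chains, here represented by Cd3e and Cd3g, and bring the kinase Lck to the receptor. Alpha chain without beta chain also occurs on a class of dendritic cells in mouse spleen, and CD4 on another dendritic class, so neither Cd4 nor Cd8a is a marker of T cells alone. Cd8b1 is largely restricted to T cells.

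The chains differ in the cytoplasmic motif that holds Lck, a cysteine, any residue, a cysteine and a proline. A search of the coding sequences in reading frame found the motif 1 time in Cd4, 1 time in Cd8a and 0 times in Cd8b1. It lies in the last 60 codons of 69 of 21650 mouse genes searched, or 0.319%. The coding stretches below, 30 bases each and read 5′ to 3′ from GENCODE M21 transcripts on GRCm38, have the 4 codons of the motif in capitals; for Cd8b1 the last coding bases are shown, with no capitals. In Cd4 the motif is followed by 10 further codons, and in Cd8a by 17.
Cd4: aagaagaccTGCCAGTGCCCCcaccggatg
Cd8a: aagcgtgttTGCAAATGTCCCaggccgcta
Cd8b1: cgaattcacttcatgaaacagtttcacaaa
Each stretch is coding sequence of 2 adjoining exons and has an intron inside its span: exons 9 and 10 of Cd4 (chr6:124866269-124866626, minus strand), exons 4 and 5 of Cd8a (chr6:71375896-71376866, plus strand) and exons 5 and 6 of Cd8b1 (chr6:71334107-71336719, plus strand). A match is a description of the sequence and was not measured in these libraries.

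In the deposited tables, whose header names a GENCODE M29 annotation (GRCm39), all 3 genes are on chromosome 6. Cd8b1 (ENSMUSG00000053044.9) runs from 71299772 to 71314478 and Cd8a (ENSMUSG00000053977.14) from 71350411 to 71356157 on the same strand, with 35932 bases between them, whereas Cd4 (ENSMUSG00000023274.15) runs from 124841655 to 124865184 on the other strand. No exon of these 3 genes overlaps an exon of another gene in the tables, so the lack of strand in the counting does not mix them with a neighbour. For Cd3e, 135 of 4080 exonic bases are shared with 1 antisense gene that had at most 3 counts in a library.

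The libraries held between 735298 and 1970950 counts. Mitochondrial transcripts took between 46.2% and 66.1% of control-titled counts and between 32.02% and 41.1% of CT-26-titled counts. The spleen label was checked with Ptprc, Cd79a, Ms4a1, Cd74, Cd3e and Trac. Each was detected in all 8 libraries, the lowest count being 11 for Cd3e. These are genes of white blood cells, so their detection cannot tell spleen from other tissue rich in such cells. Over all 6408 genes that entered edgeR's quasi-likelihood test (adjusted by Benjamini and Hochberg, threshold 0.05), 42.8% passed, with 21.6% lower (1381 genes) and 21.2% higher (1359 genes) in the CT-26-titled set. With library totals in place of TMM scaling these became 725 lower and 1936 higher. These shares are the background for every count of genes given here.

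All 3 coreceptor genes were lower in the CT-26-titled spleens, with larger folds for the CD8 chains than for Cd4. Cd8a fell 12.2-fold, Cd8b1 7.98-fold and Cd4 1.84-fold, all on counts scaled by TMM (trimmed mean of M values). With mitochondrial genes left out before scaling, the log2 fold changes were -3.58, -2.98 and -0.86 in the same order. The levels of the sets did not overlap for any of the 3, as for 18.9% of all tested genes in this direction. Cd4 was above the filter threshold in all 8 libraries, whereas Cd8a and Cd8b1 were above it in 0 and 1 of the CT-26-titled libraries, so that both entered the test through the set in which they are high. In bulk RNA, fewer cells of a type and less RNA per cell cannot be told apart.

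Cd4 had 175, 249, 170 and 300 counts in control-titled 1 to 4 and 159, 74, 99 and 102 counts in CT-26-titled 1 to 4. As CPM, the counts per 1000000 of the TMM-scaled library total, the control-titled libraries held between 180 and 187 CPM, and the CT-26-titled libraries held 141, 54.5, 88.5 and 116 CPM. The control-titled libraries were thus close to one another, and the spread lay within the CT-26-titled set, where library 1 was nearest to the control-titled level and library 2 farthest from it. The mean went from 183 ± 3.03 to 99.9 ± 37.0 CPM (SD over 4 libraries), which is -0.88 ± 0.23 (SE) on the log2 scale (edgeR adjusted p = 0.00309). The call depended on the scaling: with library totals in place of TMM, which moves the median of all genes from -0.021 to 0.35, the log2 fold change of Cd4 was -0.51 with an edgeR adjusted p of 0.123.

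Cd8a had 27, 26, 27 and 59 counts in control-titled 1 to 4 and 4, 4, 1 and 1 counts in CT-26-titled 1 to 4. The CPM were 28.8, 18.8, 29.0 and 35.5 in the control-titled set and 3.54, 2.95, 0.894 and 1.14 in the CT-26-titled set. Every CT-26-titled library rested on a handful of counts, and a single count is compatible with an expected count from 0.0253 to 5.57 (exact Poisson interval at 95%, for counting error only). The log2 fold change was -3.60 ± 0.44 (SE), with an edgeR adjusted p of 1.30e-07. Cd8a passed the filter on low counts through the control-titled libraries alone, 4 of which and 0 of the CT-26-titled libraries were above its threshold, and without the filter the log2 fold change was -3.53.

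Cd8b1, the chain that marks the heterodimer, had 40, 55, 53 and 74 counts in the control-titled set and 7, 5, 5 and 8 in the CT-26-titled set. Its CPM were 42.7, 39.9, 56.9 and 44.5 in control-titled 1 to 4 and 6.19, 3.68, 4.47 and 9.08 in CT-26-titled 1 to 4. Both sets were tight relative to the gap between them, and the highest CT-26-titled library, at 9.08 CPM, was far under the lowest control-titled library, at 39.9 CPM. The log2 fold change was -2.997 ± 0.33 (SE), with an edgeR adjusted p of 2.22e-08. This gene also entered the test mainly through the control-titled set, as 1 CT-26-titled library was above the filter threshold.

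**Figure D1:**
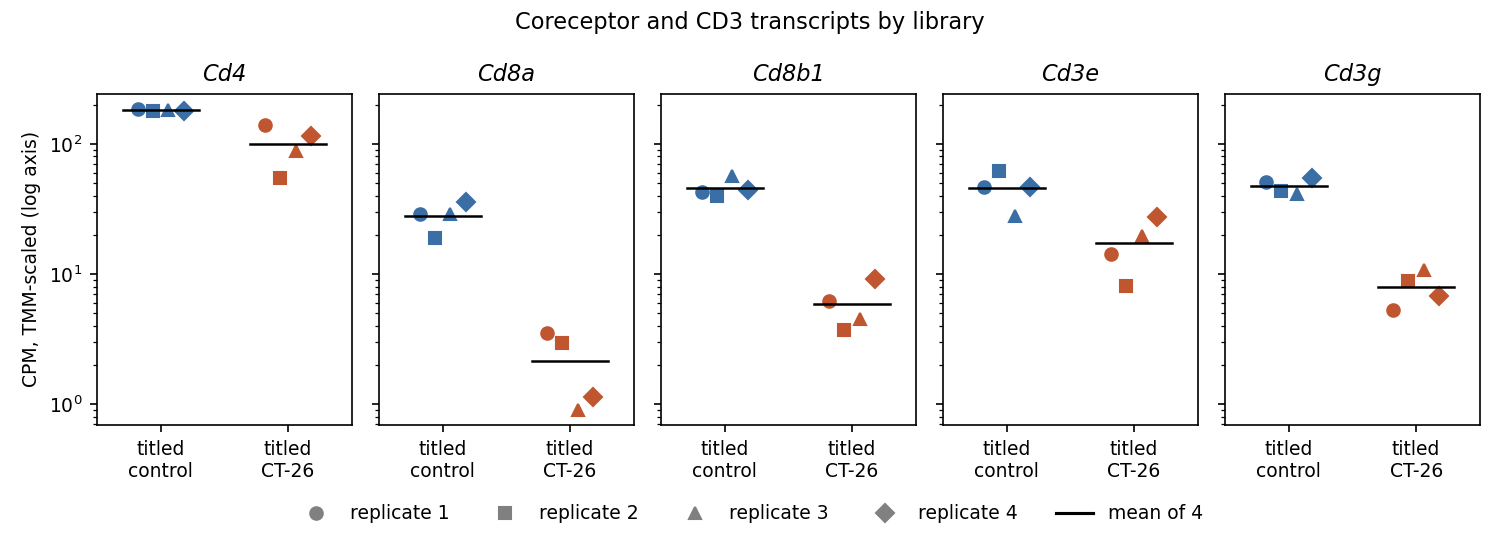
TMM-scaled CPM (log axis) of Cd4, Cd8a, Cd8b1, Cd3e and Cd3g in the 4 control-titled and 4 CT-26-titled RNA-seq libraries; each point is a library, its shape the replicate number, and the line the mean of 4. Cd8a, Cd8b1 and Cd3g are 12.2-fold, 7.98-fold and 5.91-fold lower in the CT-26-titled set, while Cd4 goes from 183 to 99.9 CPM on average.

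Levels of different genes were compared per length, as CPM per kilobase of the exonic length in the tables (RPKM). In the control-titled set Cd4 was the highest of the 5 genes at 45.3 ± 0.750 RPKM, followed by Cd8b1 at 31.0 ± 5.08, Cd3g at 14.6 ± 1.99, Cd3e at 11.2 ± 3.38 and Cd8a at 7.71 ± 1.89 (SD, n = 4). The first 3 were separated by gaps between their libraries, while Cd3g overlapped Cd3e and Cd3e overlapped Cd8a. The order changed below Cd4 in the CT-26-titled set, where Cd4 at 24.8 ± 9.17 RPKM was followed by Cd3e at 4.24 ± 1.997, Cd8b1 at 3.95 ± 1.61, Cd3g at 2.42 ± 0.724 and Cd8a at 0.585 ± 0.361. There Cd4 stood clear of the rest, Cd3e overlapped Cd8b1, Cd8b1 overlapped Cd3g, and Cd8a was below all libraries of Cd3g. Cd8b1 exceeded Cd8a per length in every library, the exonic lengths being 1483 and 3637 bases. These lengths hold all annotated exonic bases of a gene, which the transcripts present may not, so the order of genes depends on them. In CT-26-titled 1 to 4 the level of Cd8a rests on 4, 4, 1 and 1 counts.

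The balance of CD8 to CD4 was read within each library, where no scaling between libraries is needed. The ratio of Cd8a to Cd4 counts was 0.154, 0.104, 0.159 and 0.197 in control-titled 1 to 4. In CT-26-titled 1 to 4 it was 0.0252, 0.0541, 0.0101 and 0.00980. The sets did not overlap, although CT-26-titled 2 came nearer to the control-titled libraries than the other 3. As a share of Cd8a plus Cd4 counts, Cd8a made up 13.4% (exact binomial 95% interval 8.997% to 18.8%), 9.45% (6.27% to 13.5%), 13.7% (9.23% to 19.3%) and 16.4% (12.8% to 20.7%) in the control-titled libraries. The CT-26-titled shares were 2.45% (0.673% to 6.16%), 5.13% (1.41% to 12.6%), 1% (0.0253% to 5.45%) and 0.971% (0.0246% to 5.29%). By counting error alone, the interval of CT-26-titled 2 reached into those of control-titled 1 to 3, whereas the intervals of the other 3 lay below all control-titled intervals.

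Cd8b1 gave the same picture from more counts. Its ratio to Cd4 was 0.229, 0.221, 0.312 and 0.247 in control-titled 1 to 4. The CT-26-titled libraries gave 0.0440, 0.0676, 0.0505 and 0.0784. With both chains summed, the CD8 to Cd4 ratio was 0.406 ± 0.0648 in the control-titled set and 0.0849 ± 0.0271 in the CT-26-titled set (SD, n = 4 per set). Per length, where each count is divided by its gene's exonic length, the summed chains stood at 0.792, 0.716, 1.02 and 0.889 of Cd4 in control-titled 1 to 4 and at 0.148, 0.244, 0.149 and 0.224 in CT-26-titled 1 to 4. Cd4 was thus the lower of the 2 per length in control-titled 3 and the higher in the other 7 libraries.

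The mean log2 ratio, with 0.5 added to each count, differed between the sets by -2.62 for Cd8a to Cd4, by -1.99 for Cd8b1 to Cd4 and by -2.22 for the summed chains. Each had an exact two-sided permutation p of 0.0286, the smallest that the 70 assignments of 4 against 4 libraries can give, and an adjusted p of 0.0571 over the 10 ratios tested, which did not pass 0.05. Over 10 ratios, a ratio at that smallest p can pass only if enough of the others also reach it. Not passing is thus set in part by the makeup of the 10. A test chosen after seeing the data used edgeR over all genes with the Cd4 counts of each library in place of the library size. It gave a log2 difference of -2.68 ± 0.58 (SE, edgeR adjusted p = 6.40e-05) for Cd8a and -2.08 ± 0.47 (edgeR adjusted p = 0.000118) for Cd8b1. In that fit, 3.95% of 6407 genes were lower and 50.8% higher relative to Cd4. It treats the Cd4 counts as known, and their error is shared by all genes.

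Sequencing lane numbers are given in the file headers, and the ratios were also read within a lane. Lane 1 held control-titled 3 and CT-26-titled 2 and 4, and lane 2 held control-titled 1 and 4 and CT-26-titled 1, while lanes 3 and 4 held 1 library each. The log2 difference of Cd8a to Cd4 was -2.44 within lane 1 and -2.64 within lane 2, and that of Cd8b1 to Cd4 was -2.004 and -2.35. The log2 CPM of Cd4 differed by -1.18 within lane 1 and by -0.38 within lane 2.

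**Figure D2:**
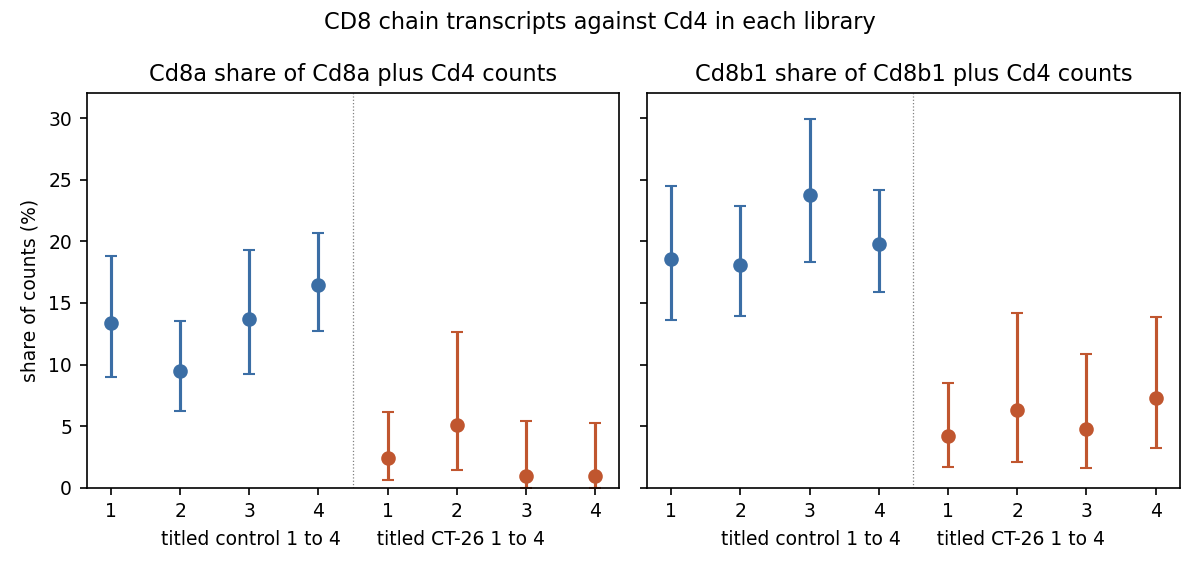
Share of Cd8a in Cd8a plus Cd4 counts (left) and of Cd8b1 in Cd8b1 plus Cd4 counts (right), in percent, for each of the 8 libraries; points are libraries and bars are exact binomial 95% intervals of the counting error. All CT-26-titled points lie below all control-titled points, with the widest interval reaching 14.2% for Cd8b1 in CT-26-titled 2.

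The 2 CD8 chains were also compared with each other. The ratio of Cd8a to Cd8b1 counts was 0.675, 0.473, 0.509 and 0.797 in control-titled 1 to 4 and 0.571, 0.8, 0.2 and 0.13 in CT-26-titled 1 to 4. The sets overlapped, and the log2 difference of -0.62 had an exact permutation p of 0.343 (adjusted p = 0.381). The CT-26-titled ratios rest on 1 or 4 Cd8a counts each. The edgeR fit on Cd8b1 counts in place of the library size, in which 0.265% of 6407 genes were lower and 96.1% higher, gave -0.69 for Cd8a (edgeR adjusted p = 0.266). Leaving out 1 library at a time moved the log2 difference between -0.98 and -0.24.

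The coreceptors were next measured against the CD3 chains, and the outcome depended on the chain. Cd4 was high relative to Cd3g and Cd8b1 low relative to Cd3e in all 4 CT-26-titled libraries. The sets overlapped for Cd4 to Cd3e, for Cd8b1 to Cd3g and for Cd8a to either chain. CD3 epsilon and gamma are invariant partners of the T cell receptor. Cd3e itself changed by a log2 fold change of -1.46 ± 0.32 (SE, edgeR adjusted p = 0.000500), from 44, 85, 26 and 78 counts to 16, 11, 22 and 24 counts. Cd3g changed by -2.56 ± 0.30 (SE, edgeR adjusted p = 7.20e-08), from 48, 60, 38 and 91 counts to 6, 12, 12 and 6 counts. The references differed in the size of their log2 fold changes, and each coreceptor is given against both.

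The ratio of Cd4 to Cd3g counts was 3.65, 4.15, 4.47 and 3.30 in control-titled 1 to 4 and 26.5, 6.17, 8.25 and 17.0 in CT-26-titled 1 to 4. Every CT-26-titled library was above every control-titled library, with CT-26-titled 1 and 4, which had 6 Cd3g counts each, the highest. The log2 difference was 1.60 (exact permutation p = 0.0286, adjusted p = 0.0571), and 1.79 ± 0.32 (SE, edgeR adjusted p = 9.24e-08) in the fit with Cd3g counts in place of the library size. In that fit 94.2% of 6407 genes were higher and 0.531% lower relative to Cd3g, so a rise of Cd4 relative to this gene is not particular to Cd4.

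Against Cd3e, Cd4 did not separate the sets. The ratios were 3.98, 2.93, 6.54 and 3.85 in the control-titled libraries and 9.94, 6.73, 4.50 and 4.25 in the CT-26-titled libraries. They overlapped because control-titled 3, with 26 Cd3e counts, lay above CT-26-titled 3 and 4. The log2 difference was 0.51 (exact permutation p = 0.171, adjusted p = 0.214), and it had opposite signs within the lanes, -0.31 in lane 1 and 1.31 in lane 2. With 1 library left out it ran from 0.26 to 0.72.

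The ratios of the CD8 chains to Cd3e had lower means in the CT-26-titled set. Cd8b1 to Cd3e was 0.909, 0.647, 2.04 and 0.949 in control-titled 1 to 4 and 0.438, 0.455, 0.227 and 0.333 in CT-26-titled 1 to 4. These did not overlap, and the log2 difference was -1.49 (exact permutation p = 0.0286, adjusted p = 0.0571; -1.67 with an edgeR adjusted p of 0.0124 with Cd3e counts in place of the library size). Cd8a to Cd3e was 0.614, 0.306, 1.04 and 0.756 in the control-titled set and 0.25, 0.364, 0.0455 and 0.0417 in the CT-26-titled set, where CT-26-titled 2 exceeded control-titled 2. Its log2 difference was -2.11 (exact permutation p = 0.0571, adjusted p = 0.0952; -2.15 with an edgeR adjusted p of 0.00619 in the fit on Cd3e counts). In this fit 1.37% of 6407 genes were lower and 62.4% higher relative to Cd3e. With counts thinned to the smallest library total, the sets overlapped for Cd8b1 to Cd3e too, at -1.25 (exact permutation p = 0.143).

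Against Cd3g the CD8 chains overlapped between the sets. Cd8b1 to Cd3g lay between 0.813 and 1.39 in the control-titled libraries and between 0.417 and 1.33 in the CT-26-titled libraries, a log2 difference of -0.39 (exact permutation p = 0.429, adjusted p = 0.429). It was -0.87 within lane 1 and 0.48 within lane 2, and ran from -0.67 to -0.15 with 1 library left out. Cd8a to Cd3g lay between 0.433 and 0.711 and between 0.0833 and 0.667, a log2 difference of -1.02 (exact permutation p = 0.143, adjusted p = 0.204). It was -1.31 within lane 1 and 0.19 within lane 2, and ran from -1.44 to -0.59 with 1 library left out. On the CPM scale the log2 fold changes of Cd8b1 and Cd3g were -2.997 and -2.56. With Cd3d, Cd3e and Cd3g summed as the reference, the log2 difference was -2.05 for Cd8a and -1.43 for Cd8b1, each with an exact permutation p of 0.0286. Their adjusted p of 0.0408 is over 10 ratios in which each stood both in place of its Cd3e ratio and of its Cd3g ratio, so that it passed through the makeup of the 10, the unadjusted p of Cd8b1 being the same as against Cd3e alone.

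**Figure D3:**
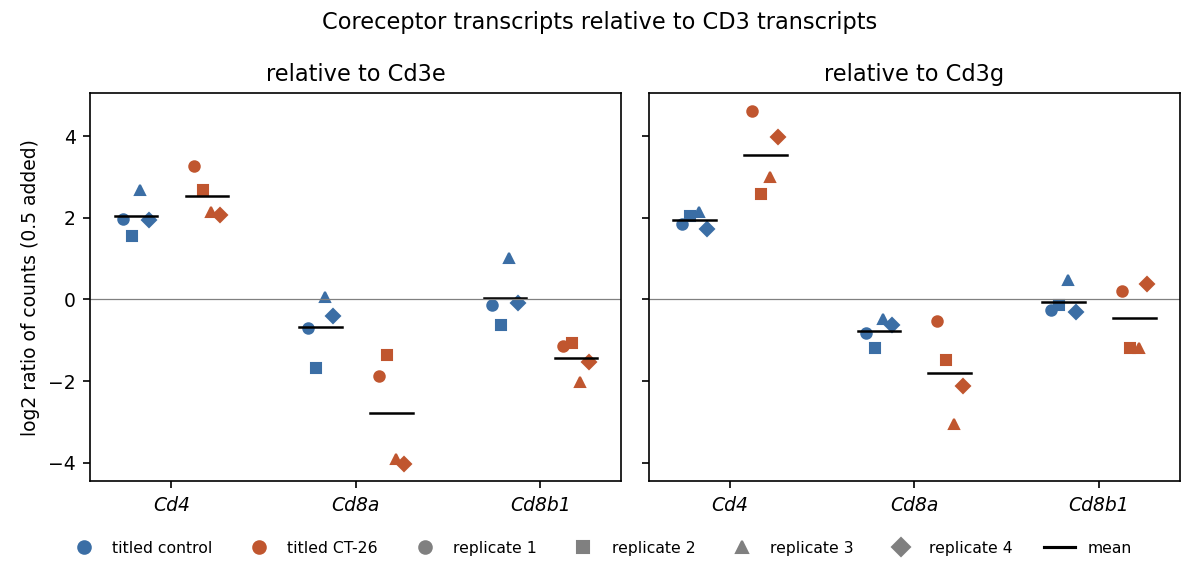
Log2 ratio of Cd4, Cd8a and Cd8b1 counts to Cd3e counts (left) and to Cd3g counts (right), with 0.5 added to each count; points are libraries of the control-titled and CT-26-titled sets and lines are means of 4. Cd4 relative to Cd3g is higher in all CT-26-titled libraries, Cd8b1 relative to Cd3e is lower in all of them, and the other 4 ratios overlap.

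The receptor complex and its signalling genes, a list of 16, moved in the direction of the coreceptors. Of 14 tested, 13 were lower and 0 higher, with a median log2 fold change of -1.52 against -0.021 over all genes tested. With library totals in place of TMM, the setting in which the call of Cd4 was lost, 11 were lower, and with lane in the model 12. Cd4 lay above all 14 and the CD8 chains below all 14. The lowest were Thy1, a surface glycoprotein of T cells, at -2.72 ± 0.27 (SE), and the receptor constant genes Trbc1 and Trbc2 at -2.58 ± 0.27 and -2.33 ± 0.29, beside Cd3g. Lck, the kinase that both coreceptors carry, went from 77.9 ± 11.4 to 34.0 ± 11.9 CPM, or -1.20 on the log2 scale. Zap70, the kinase that Lck activates, did not pass, at -0.98 with an edgeR adjusted p of 0.0598. Lck and Zap70 are further genes of the list, named after their values were seen.

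The genes of CD4 helper and regulatory T cells that could be tested had more negative log2 fold changes than Cd4. Of 12 in the list, 6 were tested and all 6 were lower, or 5 with library totals in place of TMM or with lane in the model. None of the 6 was above the filter threshold in all 4 CT-26-titled libraries, and Trat1 and Cxcr5 were above it in 0 of them, so that Trat1 and Cxcr5 entered the test through the control-titled set alone and the count of 6 is a description. Trat1, an adaptor of the receptor complex, had 49, 43, 18 and 50 counts in the control-titled set and 2, 0, 3 and 5 in the CT-26-titled set, a log2 fold change of -3.80. The costimulatory receptor Icos changed by -2.48, the transcription factor Maf by -2.13 and the follicular homing receptor Cxcr5 by -2.17. Genes too low to test were uneven. Cd40lg, the ligand by which helper cells activate B cells, had 3, 0, 3 and 5 counts in control-titled 1 to 4. It had 0 in all CT-26-titled libraries. In the same order Tnfrsf18 had 8, 5, 8 and 12 counts and then 0, 0, 1 and 1. Izumo1r had 4, 12, 17 and 48 and then 3, 0, 2 and 4. Il2ra had 3, 9, 8 and 6 and then 1, 1, 2 and 6. Tnfrsf4, at 11, 22, 12 and 9 and then 13, 5, 8 and 5, overlapped between the sets. Ctla4, at 0, 3, 2 and 0 and then 1, 2, 0 and 1, was low in both. These untested genes were named after their values were seen. The 6 tested genes were also in the fit with Cd4 counts in place of the library size, and their values in it are not given here.

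Genes of CD8 and killer lymphocytes are shared with natural killer cells. Of 16 in the list, 4 were tested and all 4 were lower, and 1 of the 4, Ccl5, was above the filter threshold in all CT-26-titled libraries. The granzyme Gzma fell from 136 ± 46.5 to 7.64 ± 3.56 CPM, the killer cell receptor Klrd1 changed by -3.30, the granule protein Nkg7 by -1.97 and the chemokine Ccl5 by -1.57. Cd8a and Cd8b1, at -3.60 and -2.997, lay within this range. Genes of this list too low to test were uneven, and those given here were named after their values were seen. Eomes, a transcription factor of these cells, had 13, 25, 15 and 17 counts in control-titled 1 to 4. It had 7, 3, 5 and 2 in CT-26-titled 1 to 4. In the same order Klrk1 had 13, 24, 20 and 10 counts and then 5, 1, 1 and 5. Cst7, at 0, 0, 6 and 2 and then 1, 2, 2 and 4, overlapped between the sets. So did Crtam, at 2, 5, 5 and 2 and then 2, 4, 4 and 1. Gzmk had at most 2 counts in a library, and Gzmm had 0 counts in all 8 libraries.

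**Figure D4:**
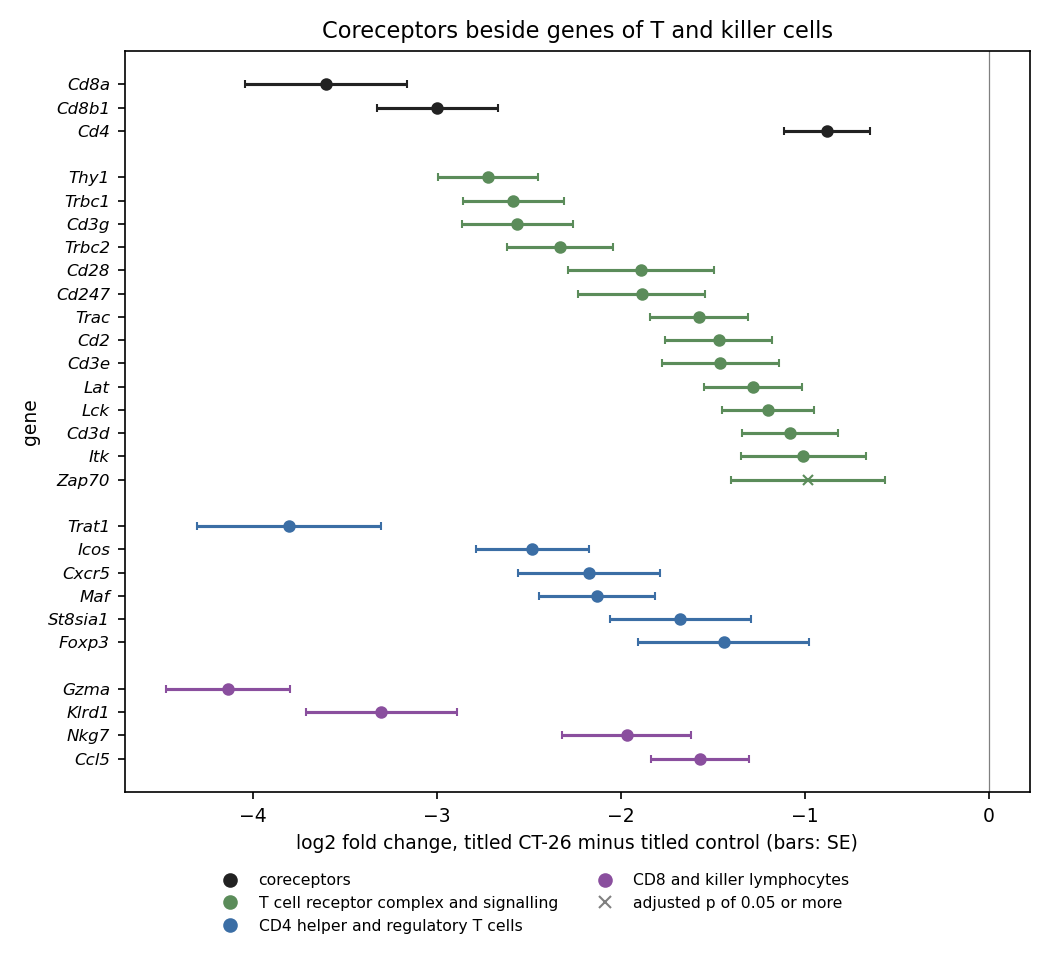
Log2 fold change (CT-26-titled minus control-titled, edgeR, bars are SE) of the 3 coreceptor genes and of the tested genes of 3 lists: T cell receptor complex and signalling, CD4 helper and regulatory T cells, and CD8 and killer lymphocytes. Cd4 at -0.88 lies to the right of every listed gene, and Cd8a at -3.60 is exceeded by Trat1 and Gzma.

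Regulators of the coreceptor genes were mixed. RUNX proteins with their partner CBF beta silence Cd4 in CD8 cells and in early thymocytes, and ThPOK (Zbtb7b) keeps Cd4 on and CD8 off in helper cells. Of 14 regulators, 11 were tested, of which 4 were lower, 2 higher and 5 did not pass, with a median log2 fold change of -0.070. Runx1 rose from 17.2 ± 6.69 to 41.9 ± 13.6 CPM, or by 1.25 ± 0.31 on the log2 scale (SE, edgeR adjusted p = 0.00161), and Cbfb fell from 78.4 ± 17.1 to 34.1 ± 9.71 CPM, which is -1.19 ± 0.25 on the log2 scale (SE, edgeR adjusted p = 0.000295). The T cell factors Bcl11b and Tcf7 changed by -1.74 and -0.97, the call of Tcf7 being lost with library totals in place of TMM (-0.56, edgeR adjusted p = 0.118). The other gene that was higher was Patz1, named after its values were seen, a repressor of Cd8a, at 0.65, a call lost with the lane in the model and without control-titled 2, control-titled 3 or CT-26-titled 4. Runx3, which silences Cd4 in CD8 cells, had 32, 5, 20 and 79 counts in control-titled 1 to 4 and 42, 26, 22 and 24 in CT-26-titled 1 to 4, and did not pass at -0.070. Zbtb7b was too low to test, with 4, 16, 2 and 18 counts against 3, 3, 8 and 4. Runx1 is also active in other blood cells, including those of the red cell and neutrophil lines.

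The ligands of the coreceptors were lower for class II and mixed for class I. Of 10 genes, 9 were in the tables and 8 were tested, with 5 lower, 0 higher and a median log2 fold change of -0.94. The class II chains that CD4 binds changed by -1.26 for H2-Ab1, -1.15 for H2-Eb1 and -1.09 for H2-Aa. Il16, a cytokine for which CD4 is a receptor, changed by -1.93. Among class I genes, B2m, the light chain, was the fifth of those lower, at -0.79, while H2-K1 and H2-D1, which present to CD8, did not pass at -0.18 and -0.20. With library totals in place of TMM, 4 of the ligands were lower, B2m losing its call. B2m, H2-K1 and H2-D1 were named after their values were seen.

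Dendritic cells that carry these coreceptors were read from lists of genes, not all of which are restricted to them. A fall of a listed gene is thus not assigned to these cells here. For those with CD8 alpha chain, 12 of 12 markers were in the tables, 5 were tested and 4 were lower, with a summed level from 192 to 334 CPM in the control-titled set and from 93.9 to 122 CPM in the CT-26-titled set. Their defining markers were near 0 in the CT-26-titled set: Xcr1 had 11, 39, 10 and 18 counts and then 0, 0, 1 and 2, and Clec9a had 14, 20, 16 and 6 counts and then 1, 0, 0 and 1. The integrin Itgae, at 1, 6, 8 and 2 counts and then 3, 5, 0 and 1, was low in both sets. Cadm1, Irf8, Ppt1 and Naaa changed by -1.32, -1.14, -1.22 and -1.47, of which Naaa lost its call without control-titled 3. The part of these cells in the fall of Cd8a was not tested.

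For dendritic cells with CD4, 10 of 10 markers were in the tables and 6 were tested, of which 2 were lower and 0 higher. Their summed level went from between 202 and 296 CPM to between 125 and 159 CPM. Itgax, an integrin of dendritic cells, changed by -1.51, and Dtx1, a Notch target also used by B cells, by -1.57. The call of Dtx1 was lost with library totals in place of TMM and with replicate number as a block. Irf4 and Notch2 did not pass, and the defining marker Clec4a4 had at most 2 counts in any library. Esam had 0, 0, 0 and 3 counts in control-titled 1 to 4 and 0, 11, 6 and 4 in CT-26-titled 1 to 4, and Sirpa did not pass at -0.058. Plasmacytoid dendritic cells, which can carry CD4, had 4 of 6 tested markers lower, of 10 in the list, with summed levels from 215 to 363 CPM and from 80.3 to 179 CPM. Ccr9, Ly6d, Spib and Siglech changed by -3.71, -3.08, -1.73 and -1.77, and Siglech lost its call without CT-26-titled 1. Ccr9 and Ly6d were above the filter threshold in 0 and 1 of the CT-26-titled libraries and in all control-titled libraries. Both thus entered the test through the set in which they are high, and the count of 4 is a description. Tcf4 and Runx2 of that list, named after their values were seen, did not pass at -0.23 and -0.55. Bst2 of that list had at most 3 counts in a library, and Cd300c had 0 in all 8. How far any of these cells contributed to the Cd4 level was not tested.

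Other lineages moved with the coreceptors or against them. Of 10 B cell markers, 9 were lower, their median being -2.15 on the log2 scale, and the list had a summed level from 1988 to 3142 CPM in the control-titled set and from 346 to 718 CPM in the CT-26-titled set. All 10 markers of red cell precursors were higher, with a summed level from 828 to 995 CPM and from 3115 to 5838 CPM, or 9 of them with lane in the model. Of 10 genes of neutrophils and their precursors 9 were higher, from between 521 and 1673 CPM to between 3871 and 9316 CPM, and 5 of the 10 were above the filter threshold in no control-titled library. Their part in the lower CPM of the coreceptors was not tested, while the ratios of CD8 to Cd4 within a library do not use the other genes.

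The genes most like each coreceptor across libraries were listed as a description. Likeness was Pearson's r of log2 CPM over the 8 libraries after subtracting each set's mean, among 6361 other genes with a mean log2 CPM of at least 3, so it describes only how libraries of one set differ from each other. The highest for Cd4 were Exosc3, Stxbp3, Nfatc3, Il7r and Pgap1, with r from 0.957 to 0.979. Il7r, the interleukin 7 receptor of resting T cells, had r of 0.961. For Cd8a they were Ap2m1, Psmb3, Ftl1, Cers2 and Mcm3ap, with r from 0.952 to 0.986, and for Cd8b1 they were Zyg11b, Atp6v0a2, Rasa2, Gbp9 and Usp24, with r from 0.952 to 0.983. These are the highest of many values over few libraries that share depth and scaling. Between the coreceptors themselves, r was 0.69 for Cd4 and Cd8b1, -0.028 for Cd4 and Cd8a and -0.088 for Cd8a and Cd8b1. In CT-26-titled 1 to 4 these rest on 4, 4, 1 and 1 Cd8a counts and 7, 5, 5 and 8 Cd8b1 counts. Counting error is large there, so a low r does not show that the 2 CD8 chains vary apart.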

How the data were processed

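The authors deposited raw counts of fragments per gene; per the file headers these come from featureCounts 2.0.1 with GENCODE M29 models and no strand option. The submitters' processing notes name Trimmomatic 0.39 and STAR 2.7.10a and list both GRCm39 and GRCm38. A reference table, used for names only, gave symbols to 52081 of 55414 genes. The T and B cell receptor tables were not used here, and 1 marker used to check the spleen label is not reported here.

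After filterByExpr and TMM scaling, 6408 genes entered a robust quasi-likelihood fit in edgeR (Benjamini-Hochberg adjustment, threshold 0.05). The SE is the log2 fold change divided by the square root of F. Ratios of counts were tested by exact two-sided permutation, adjusted over 10. Near-identical genes, such as those of class I, have uncertain counts. The genes, the 11 lists and the tests were chosen with earlier results of these data known. Named are the coreceptors, Cd3e, Cd3g, up to 4 genes of smallest p per list and 5 most alike genes per coreceptor. Markers set for spleen and for each dendritic class are also named. All other genes, among them Runx3, Zbtb7b and Cd300c, were named after their values were seen. No library was a copy of another: chi-square per degree of freedom was at least 3.70. On simulated counts (6408 genes, 200 changed) 47.5% of changes of 2-fold were recovered and 88.1% of those of 4-fold, and 5 of 141 calls were false. In the data 42.8% of genes passed, a larger share than was changed there. The simulation thus does not cover the dependence of calls on the scaling. Tools were edgeR 4.0.16, limma 3.58.1 and DESeq2 1.42.0 in R 4.3.3, and scipy 1.17.1, numpy 2.4.6, pandas 2.3.3 and matplotlib 3.10.9 in Python 3.11.15.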

Additional observations from a re-analysis of the deposited data

How the results depend on the processing

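The falls of Cd8a and Cd8b1 kept direction and call under every alternative run: other scalings, DESeq2, no filter, mitochondrial genes left out, lane or replicate number in the model, and each library left out. Without 1 library at a time, log2 fold changes ran from -3.89 to -3.33 for Cd8a, from -3.25 to -2.80 for Cd8b1 and from -1.08 to -0.66 for Cd4. With library totals in place of TMM, Cd4 was no longer called (-0.51), and 725 genes were lower where TMM gave 1381 (1936 and 1359 higher); Notch2, Mcm3ap and Atp6v0a2, none of them called, changed sign to 0.17, 0.22 and 0.12. Nfatc3, also not called, ran from -0.044 without CT-26-titled 1, a change of sign, to 0.45 without CT-26-titled 2. The cause was not tested.

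As planned for the main analysis, no ratio passed the adjusted permutation test, and with 1 library left out 35 assignments cannot give less than 0.0571. Adding 0.25 or 1 to each count or thinning to the smallest total left all 10 on the same side of the threshold. Thinning did end the separation of the sets for Cd8b1 to Cd3e, at -1.25 (exact permutation p = 0.143). It left Cd8a to Cd3e at -1.64 (exact permutation p = 0.2). Against summed Cd3d, Cd3e and Cd3g, Cd8a (-2.05) and Cd8b1 (-1.43) had an adjusted p under the threshold, each standing 2 times among the 10. With the denominator's counts in place of library size, chosen after seeing the data, edgeR called Cd8a to Cd4 (-2.68), Cd8b1 to Cd4 (-2.08), Cd8a to Cd3e (-2.15), Cd8b1 to Cd3e (-1.67) and Cd4 to Cd3g (1.79); the summed chains were not run in this fit.

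Libraries of equal replicate number were not treated as pairs, since correlations of their deviations lay between -0.0900 and 0.0778. With replicate number as a block, 1328 genes were lower and 1340 higher, Cd4 was at -0.94, Cd8a at -3.56 and Cd8b1 at -2.99; the sign-flip test over 4 pairs, which can pass no threshold of 0.05, left Cd8a to Cd4 at -2.62.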
